A study of Danio rerio with 25 samples.

Results

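The late adult step of zebrafish brain ageing was described from small RNA libraries of male fish at 36 and at 24 months of age, with 5 libraries at each age. These 10 libraries were chosen by their age label (3 years and 2 years) out of 25 libraries in 5 age groups of 6, 12, 24, 36 and 42 months. The 24-month fish were of the strain AB JxTü with no transgene named, and the 36-month fish of the same strain with Tg(pu.1:GFP). The promoter of pu.1, a transcription factor of myeloid cells, is used to label those cells, and a difference of line cannot be told apart from a difference of age here. The other ages, used for comparison, were male fish of the same strain, with no transgene named at 6 months, Tg(flk:mCherry) at 12 and Tg(wt1a:GFP) at 42 months. The labels do not say whether the libraries of an age came from separate animals, and the p-values then cover only the spread among these libraries. All miRNA names of the deposited hairpin table are covered: 197 had enough reads to be tested and 20 did not.

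miRNAs are short RNAs that guide Argonaute proteins to messenger RNAs, mostly through their seed, the stretch near the 5′ end that pairs with the target, and lower the output of those messages. Many are confined to a few cell types, so that their level in whole brain follows both regulation inside cells and the mix of cells. In bulk tissue, fewer cells of a type and less RNA per cell cannot be told apart. Related miRNAs often come from hairpins that lie side by side and are cut from 1 transcript. The counts used here join both arms of a hairpin, so that no arm can be named.

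Total counts ranged from 5632881 to 10196781 at 24 months and from 5237318 to 20924118 at 36 months, and their means did not differ beyond the spread (difference 2294500, two-sided exact permutation test, p = 0.627, n = 5 per age). A single read was worth between 0.0492 and 0.186 CPM (reads scaled to a common library size with TMM factors) in these libraries. Brain miRNAs were high throughout, with miR-9 between 45290 and 56440 CPM, miR-124 between 5631 and 10260 CPM and miR-128 between 61720 and 98510 CPM. The 10 most abundant miRNAs took between 58.4% and 63.4% of counts in every library. The 36-month replicate 1 stood apart in miRNAs known from epithelia: the summed level of the miR-200 family was 8463 CPM there, against 138.7 to 280 CPM in the other 36-month libraries and 101.3 to 360.3 CPM at 24 months. Results that rest on this library are given with and without it.

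Few brain miRNAs were called as different between 36 and 24 months. Of the 197 tested, 9 were called at an adjusted p under 0.05 (4.57%), 5 of them higher (2.54%) and 4 lower (2.03%) at 36 months. The higher ones were miR-31, miR-222b, miR-135b, miR-142a and miR-738, and the lower ones miR-92b, miR-181b, miR-181c and miR-724. The test was edgeR's quasi-likelihood F test on counts of all 25 libraries with Benjamini-Hochberg adjustment over the 197 miRNAs, and this is the test behind every adjusted p below unless another is named. At an unadjusted p under 0.05 there were 42 miRNAs (21.3%), 21 in each direction (10.7%). The log2 change was above 0 for 98 miRNAs (49.7%). Changes were small as a rule: the median of the absolute log2 change was 0.185 and its 90th percentile 0.780, and the median log2 change was -0.00182. The count depended on the libraries and on the fit: 2 miRNAs were called in a fit of the 10 libraries alone, and between 1 and 12 with 1 of the 10 libraries left out.

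**Figure D1:**
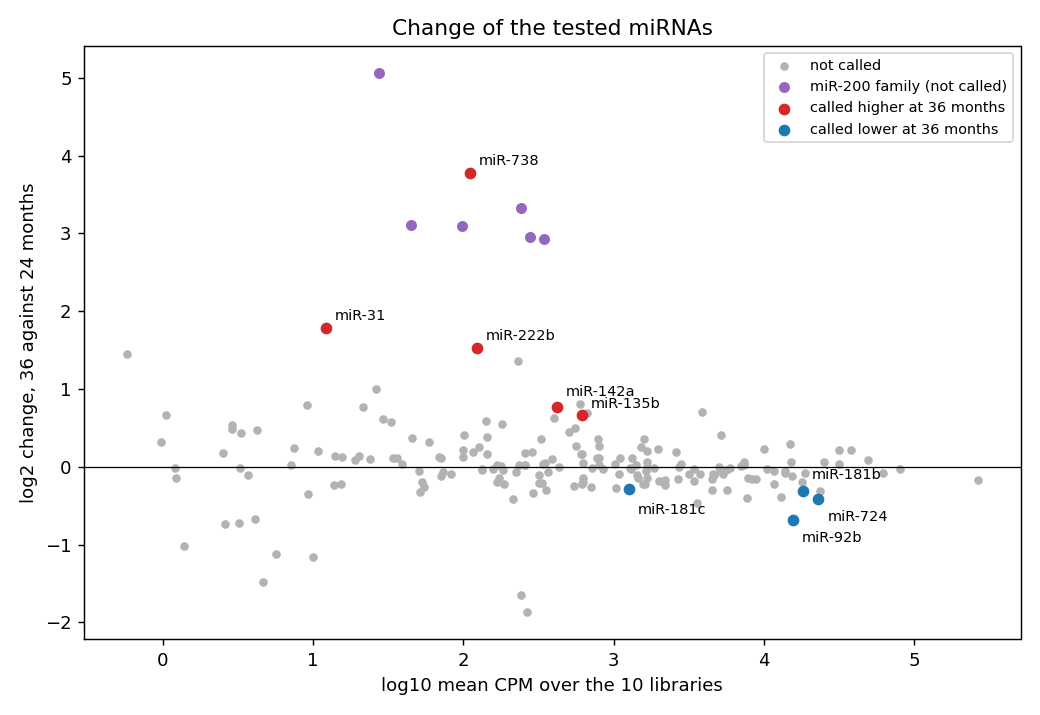
Log2 change at 36 against 24 months (y axis) against the log10 of the mean CPM over the 10 libraries (x axis) for the 197 tested miRNAs. Red and blue points are the 5 called higher and the 4 called lower, and violet points are the 6 members of the miR-200 family, with changes of 2.93 to 5.06 that were not called in edgeR.

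miR-31, known in mammals from epithelial and mesenchymal cells and as a brake on tumour cell invasion, rose from a low level. It stood at 4.95, 4.76, 3.97, 6.11 and 7.70 CPM in the 24-month libraries and at 16.04, 31.1, 20.4, 17.5 and 9.89 CPM in the 36-month libraries. All 5 of the older libraries lay above all 5 of the younger. The total count was 187 reads at 24 and 936 reads at 36 months. The rise was 3.46-fold (log2 change 1.79, SE 0.32, adjusted p 0.00303). In the other ages its mean was 5.90 CPM at 6, 11.02 at 12 and 6.34 CPM at 42 months, where it was lower again than at 36 months (log2 change -1.58, SE 0.32, adjusted p 0.0121, in a comparison that shares the 36-month libraries). miR-31 was the only miRNA called without 36-month replicate 2 (log2 change 1.54, adjusted p 0.0159), and it was called without each of the other 9 libraries too.

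miR-222b belongs to the family of miR-221 and miR-222, which represses the cell-cycle inhibitor p27 in human cells. Its levels were 73.1, 49.4, 63.9, 78.6 and 52.3 CPM at 24 months. At 36 months they were 60.02, 376, 220, 148 and 116 CPM. Replicate 1 lay inside the 24-month range, and the other 4 libraries lay above all 24-month values. The change was 2.89-fold (log2 1.53, SE 0.34, adjusted p 0.0110), and without 36-month replicate 2 the log2 change was 1.10 and the call was lost (adjusted p over all settings from 0.000755 to 0.108). With limma-voom and in the fit of the 10 libraries the call was lost too. Mean miR-222b was 52.1 CPM at 6, 117 at 12, 63.5 at 24, 184 at 36 and 107 CPM at 42 months. The ages with no transgene named, 6 and 24 months, thus had the lowest means, and line and age cannot be told apart. The 2 other family members did not pass the test: miR-221 went from 16070 ± 5960 to 14800 ± 4060 CPM (SD, n = 5 per age; log2 change -0.12, adjusted p 0.846) and miR-222a from 19040 ± 6100 to 16680 ± 4050 CPM (-0.19, adjusted p 0.670). In the RefSeq annotation the miR-221 and miR-222a hairpins neighbour each other within 10 kb, and no neighbouring hairpin was found for miR-222b. Only 335 of 346 hairpins were matched by name, and an unmatched hairpin would show no neighbour. The difference between the family members was not tested.

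miR-142a, a miRNA of blood cells that marks leukocytes across vertebrates, was even at 24 months, with 305, 287, 314, 319 and 323 CPM. It was at 464.4, 810, 453.6, 484.3 and 435.9 CPM at 36 months. The groups did not overlap, and replicate 2 was far above the other 36-month libraries. The rise was 1.71-fold (log2 0.77, SE 0.22, adjusted p 0.0414), and 0.57 on the log2 scale without replicate 2, where it was not called. The call was also lost without each single 24-month library and without 36-month replicate 4 (highest adjusted p over all settings 0.138). The same held with limma-voom, in the fit of the 10 libraries and with epithelial sums (miR-200 family and skin miRNAs) as covariates. Its mean was 462 CPM at 6, 580 at 12 and 474 CPM at 42 months, so that the 24-month group was the lowest of the 5 ages in mean level.

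The other leukocyte miRNAs were set beside it because the 36-month line carries a myeloid reporter. miR-142b went from 112.8 ± 18.0 to 170.4 ± 55.1 CPM and did not pass (log2 change 0.59, SE 0.24, adjusted p 0.138). miR-150, known from lymphocytes, stood at 751 ± 80.9 and 811 ± 143 CPM (log2 change 0.11, adjusted p 0.831), and miR-223, the myeloid member, at 14.9 ± 8.21 and 16.4 ± 4.86 CPM (0.13, adjusted p 0.866). Of the 4 members of this list, 1 was called (background 4.57%) and all 4 changes were above 0 (background 49.7%), with a median of 0.363. The changes of miR-150 and miR-223 were smaller than their SEs of 0.21 and 0.29. As family members miR-142a and miR-142b may share reads, so that these are not 4 separate results. The summed level of the list was 1095 to 1300 CPM at 24 and 1261 to 1933 CPM at 36 months, and ranges overlapped. Whether leukocyte number or the line takes part in the miR-142a change was not tested.

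miR-135b, of a family studied in neurons and known in human cells for repressing the Wnt pathway gene APC, had 418, 555, 464, 480 and 458 CPM at 24 months. It had 595, 1044, 528, 1028 and 575 CPM at 36 months. Replicates 2 and 4 were near each other and far above the rest, and replicate 3 fell within the 24-month range. The change was 1.59-fold (log2 0.67, SE 0.18, adjusted p 0.0309). Its relatives did not pass the test: miR-135a went from 52.7 ± 8.47 to 65.5 ± 12.6 CPM (log2 change 0.31, adjusted p 0.228) and miR-135c from 795 ± 92.9 to 806 ± 124 CPM (0.02, adjusted p 0.944). miR-135b was lost without 36-month replicate 2 or 4, and also without 24-month replicate 1, 3, 4 or 5 (highest adjusted p over all settings 0.200). Further losses came with limma-voom, in the fit of the 10 libraries and with epithelial sums as covariates. Its mean was 667 CPM at 6, 607 at 12, 475 at 24 and 481 CPM at 42 months. The 24-month group was the lowest in mean level but close to the 42-month group (42 against 24 months, log2 change 0.02, adjusted p 0.973).

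miR-738 had the largest change of the called miRNAs and the widest spread. It was at 14.96, 18.0, 3.86, 9.52 and 29.0 CPM at 24 months. At 36 months it was at 236, 338, 30.6, 415 and 16.2 CPM. The 36-month libraries thus fell into 3 high ones and 2 near the 24-month level. The log2 change was 3.78 (SE 1.07, adjusted p 0.0414). The call held in 2 of the 10 fits that leave out 1 library, those without 36-month replicate 3 or 5. It was lost with limma-voom, in the fit of the 10 libraries, with a minimum of 10 CPM and with epithelial sums as covariates. Replicates spread widely at 12 months as well, where the mean was 87.6 CPM, and the mean at 42 months was 10.6 ± 7.43 CPM.

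**Figure D2:**
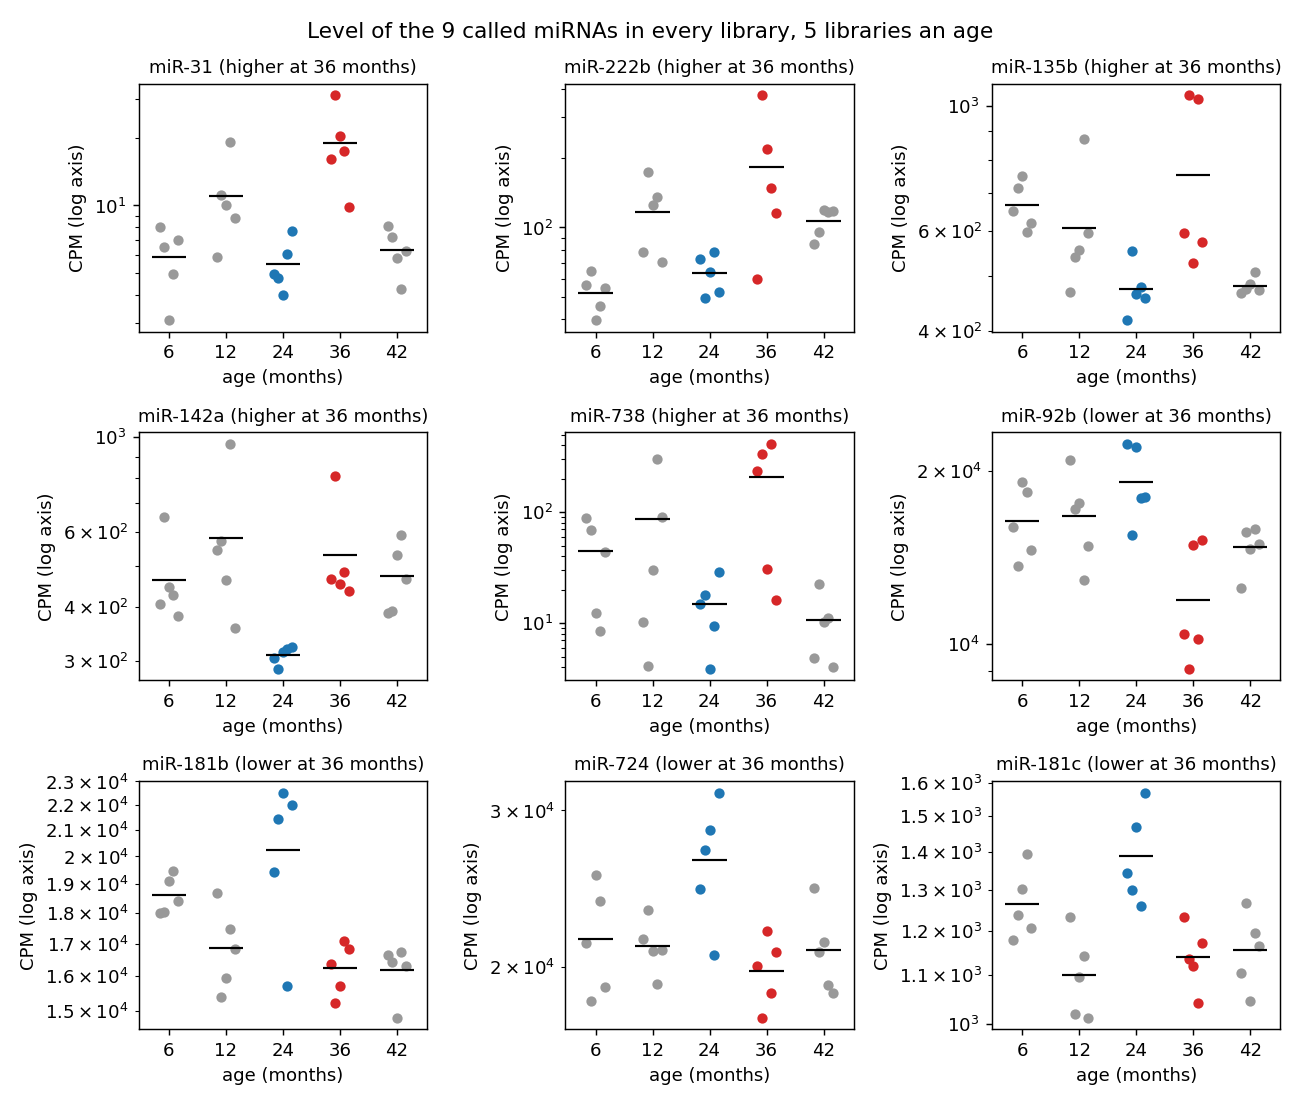
CPM on a log axis against age for the 9 called miRNAs, with 1 point per library, 5 libraries an age and a bar at the mean; 24 months is blue and 36 months red. miR-31, miR-142a, miR-92b and miR-181c show no overlap between the blue and red points, and miR-738 spans 16.2 to 415 CPM at 36 months.

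Among the 4 called falls, that of miR-92b was the largest. It shares its seed with miR-25 and miR-92a and is known in mammals from neural progenitor cells. The 24-month libraries held 22320, 15470, 22060, 17950 and 18050 CPM, and the 36-month libraries 10430, 9051, 14860, 10200 and 15180 CPM. The highest 36-month library lay just below the lowest 24-month library. Its level fell by 37.7% (log2 change -0.68, SE 0.15, adjusted p 0.0110). It was called without each single library except 36-month replicate 2, and it was not called in a fit of the 10 libraries (log2 change -0.67, SE 0.16, adjusted p 0.107). Its mean was 16360 CPM at 6, 16700 at 12 and 14730 CPM at 42 months.

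No other member of the miR-17-92 clusters and their paralogs passed the test in edgeR with all libraries. Of 15 members tested, 1 was called (background 4.57%), and the median log2 change was 0.0413. miR-92a stood at 14950 ± 660 and 15600 ± 2090 CPM (log2 change 0.06, SE 0.07, adjusted p 0.694), and miR-25 at 1325 ± 216 and 1302 ± 196 CPM (-0.02, adjusted p 0.944). miR-19c went from 39.6 ± 6.74 to 51.2 ± 6.72 CPM and did not pass (0.37, SE 0.13, adjusted p 0.120). It was called with DESeq2 (0.36, adjusted p 0.041) and in edgeR without 36-month replicate 3 (0.46, adjusted p 0.0441). In the RefSeq annotation no neighbouring hairpin within 10 kb was found for miR-92b, where a hairpin not matched by name would show none. miR-92a and miR-92b are close in sequence and can share reads, and the difference between them was not tested.

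miR-181b and miR-181c fell, 2 of the 3 tested members (background 2.03% lower) of a family that is abundant in brain and in lymphoid cells. miR-181b stood at 19440, 21460, 22530, 15720 and 22000 CPM at 24 months and at 16380, 15210, 15720, 17070 and 16830 CPM at 36 months. Only 24-month replicate 4 was as low as the 36-month libraries. The level fell by 19.7% (log2 change -0.32, SE 0.08, adjusted p 0.0180). miR-181c was at 1343, 1300, 1470, 1260 and 1571 CPM and then at 1233, 1136, 1121, 1041 and 1172 CPM, with no overlap. It fell by 17.9% (-0.28, SE 0.07, adjusted p 0.0309).

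miR-181a, the most abundant miRNA of these brains, was at 282700 ± 36200 CPM at 24 and 250200 ± 17600 CPM at 36 months. Its log2 change of -0.18 (SE 0.09, adjusted p 0.225) did not pass the test. In the RefSeq annotation each hairpin of miR-181b counted here, and that of miR-181c, neighbours a miR-181a hairpin. Family members differ at few bases and can share reads. At 6 and 12 months the means were 18600 and 16860 CPM for miR-181b, and 1264 and 1101 CPM for miR-181c. For both, the 24-month group was the highest of the 5 ages in mean level. At 42 months the means were 16180 CPM for miR-181b and 1155 CPM for miR-181c, close to those at 36 months. miR-181b was lower than at 24 months there as well (log2 change -0.32, adjusted p 0.0301), a comparison that shares the 24-month libraries and had 2 calls in all (1.02%). Both lost the call in a fit of the 10 libraries, with a minimum of 10 CPM, with epithelial sums as covariates, and when 24-month replicate 3, 24-month replicate 5 or 36-month replicate 2 was left out. miR-181b also lost it without 24-month replicate 2, and miR-181c without 36-month replicate 4.

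miR-724, an abundant miRNA of these brains, had 24490, 27070, 28500, 20660 and 31420 CPM at 24 months. At 36 months it had 20080, 17550, 21980, 18740 and 20810 CPM. Only 24-month replicate 4 fell within the 36-month range. The level fell by 25.0% (log2 change -0.41, SE 0.11, adjusted p 0.0297). Its mean was 21540 CPM at 6, 21120 at 12 and 20920 CPM at 42 months, so that the 24-month group was the highest in mean level. The call was lost when 24-month replicate 2, 3 or 5 was left out, and likewise for 36-month replicate 2 or 4. It was also lost in the fit of the 10 libraries and with epithelial sums as covariates.

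**Figure D3:**
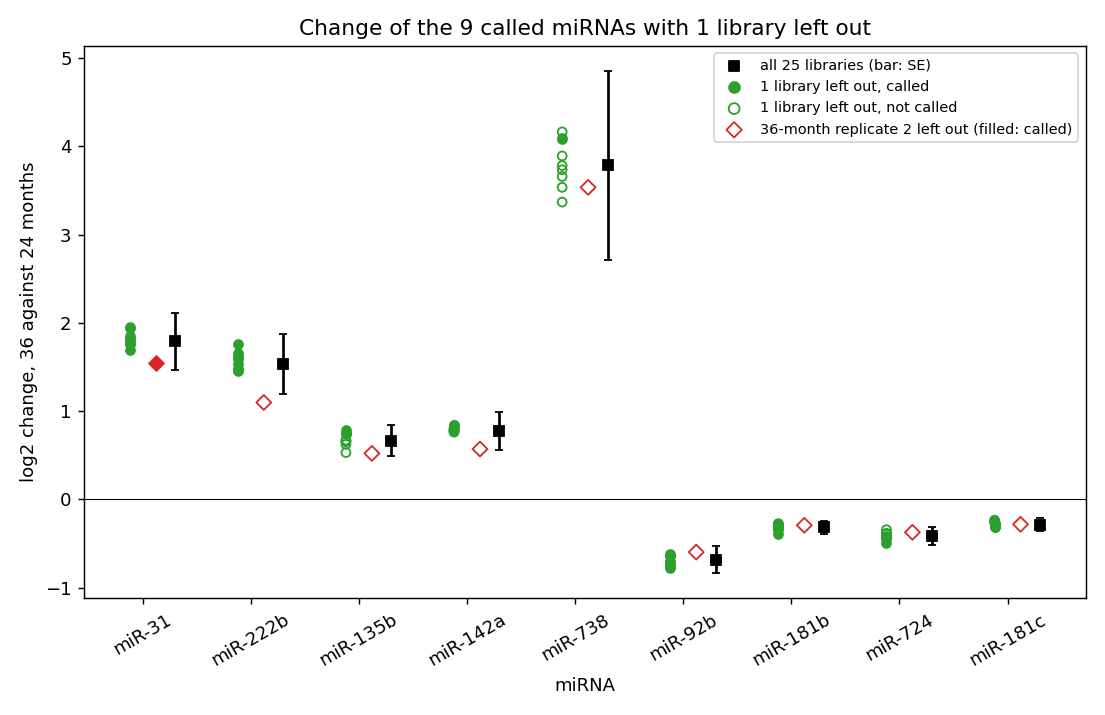
Log2 change at 36 against 24 months (y axis) for the 9 called miRNAs with all libraries (black, bar is the SE) and with 1 of the 10 libraries left out (green circles, filled where called; red diamonds without 36-month replicate 2). No change turns sign, and only the miR-31 diamond is filled.

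The 36-month replicate 2 was the most extreme older library for 7 of the 9 called miRNAs, the highest for 4 of the 5 higher ones and the lowest for 3 of the 4 lower ones. Replicate 4 was the most extreme for the other 2. The 9 miRNAs were picked for their gap between the ages, and how often replicate 2 was the most extreme over all 197 miRNAs was not counted. Replicate 2 also held the highest miR-21 (63840 CPM, against 30700 to 41380 CPM in the other 36-month libraries), miR-29b and miR-155. The fit without replicate 2 gave 1 call, with 38 miRNAs at an unadjusted p under 0.05.

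Several miRNAs separated the ages by library but were not called. The groups did not overlap for 9 of the 197 miRNAs (4.57%), 6 with the older libraries above (3.05%) and 3 with them below (1.52%), and 4 of these 9 were called (2.03%). miR-27c, of a family active in blood vessels, was at 469 to 536 CPM at 24 and 624 to 1023 CPM at 36 months (log2 change 0.69, SE 0.22, adjusted p 0.0812). It was called in the fit of the 10 libraries (0.71, adjusted p 0.0385), together with miR-31, with DESeq2 (adjusted p 0.0328) and with library totals only (0.0492). Mean miR-27c was 756 CPM at 6, 852 at 12, 510 at 24, 822 at 36 and 564 CPM at 42 months. The 24-month group was thus the lowest of the 5 ages in mean level. Its relatives miR-27a (0.21, adjusted p 0.765) and miR-27b (0.06, adjusted p 0.694) did not pass. miR-733 was at 25.0 to 27.9 CPM and then 32.4 to 49.5 CPM (0.57, adjusted p 0.120), and miR-125c at 1537 to 1947 and then 2009 to 2442 CPM (0.23, adjusted p 0.154). Both were called with library totals only (adjusted p 0.0492 and 0.0497).

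miR-2185 had the most negative log2 change among miRNAs of at least 10 CPM on average. It was at 380, 500, 350, 489 and 360 CPM at 24 months, and at 250, 231, 38.2, 22.6 and 26.8 CPM at 36 months. All older libraries were lower, and 3 of them by a wide margin. The log2 change was -1.87 with an SE of 0.73 (adjusted p 0.138), so that the difference did not pass the test in edgeR. It was called with DESeq2 (adjusted p 0.0451). The mean was 466 ± 131 CPM at 42 months and 180.3 ± 155 CPM at 12 months. The 12-month libraries spread widely too, at 275.6, 347.9, 21.21, 10.37 and 246.5 CPM. miR-30a, below 5 CPM in all 10 libraries, was the other miRNA without overlap (log2 change 0.49, adjusted p 0.315).

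miR-338, which promotes oligodendrocyte maturation, was at 13540, 14520, 13820, 13210 and 12030 CPM at 24 months. At 36 months it was at 11190, 16950, 18120, 17960 and 17700 CPM. Replicate 1 was the lowest of all 10 libraries, while the other 4 lay above every 24-month library. The log2 change was 0.29 (SE 0.11, adjusted p 0.128), and 0.40 without 36-month replicate 1 (adjusted p 0.00513), where miR-338 was called. Its partner miR-219 was at 5023 ± 543 and 4995 ± 761 CPM (-0.01, adjusted p 0.976).

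Of the 16 neuronal miRNAs 1 was called (background 4.57%), miR-135b, and their median log2 change was -0.0077. miR-9 was at 47630 ± 1760 and 50710 ± 3440 CPM (log2 change 0.09, adjusted p 0.586) and miR-128 at 81170 ± 14600 and 79880 ± 11900 CPM (-0.02, adjusted p 0.960). The activity-regulated miR-132, induced by neuronal firing, went from 26360 ± 3930 to 21240 ± 2800 CPM without passing (-0.31, SE 0.12, adjusted p 0.128), and its cluster mate miR-212 changed by -0.16 (adjusted p 0.459). The endothelial miR-126a and miR-126b changed by -0.09 and -0.24 (adjusted p 0.602 and 0.157). The 24-month and 36-month ranges of both endothelial miRNAs overlapped.

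Families that repress matrix, chromatin or cell-cycle genes include those of miR-29, miR-101, miR-26, miR-15/16 and let-7. None of these gave a call in edgeR with TMM scaling and all 25 libraries. The miR-29 family is known for lowering collagens: miR-29b went from 317 ± 69.1 to 488 ± 171 CPM (log2 change 0.62, SE 0.21, adjusted p 0.120) and miR-29a from 1381 ± 90.6 to 1647 ± 185 CPM (0.25, adjusted p 0.138). miR-29b followed miR-135b in having its 2 highest values in replicates 2 and 4, with 689 and 657 CPM against 337 to 414 CPM in the others. miR-101b (0.35, adjusted p 0.128) and miR-26b (0.21, adjusted p 0.138) did not pass either. With library totals only all 4 were called (adjusted p from 0.0492 to 0.0497). miR-29b was also called with DESeq2 (0.041) and in edgeR without 36-month replicate 3 (0.0441) or 5 (0.0414). Of 8 members of the miR-15 and miR-16 family none was called, with a median change of 0.0269. All 10 members of the let-7 family, which restrains growth genes, had changes below 0 with TMM scaling, between -0.219 and -0.0155, where 49.7% of all tested miRNAs were above 0. Family members can share reads, so that these are not 10 separate results, and let-7a turned to 0.040 without 24-month replicate 4. Library totals only moved miR-128 from -0.02 to 0.057, miR-101b from 0.351 to 0.424 and miR-181b from -0.317 to -0.235. With TMM scaling let-7b, let-7h, let-7i and let-7j lay between -0.0508 and -0.0155, so that their sign may depend on the scaling. Most let-7 members were not examined with library totals only. None of the 10 was called in edgeR, and 3 had an unadjusted p under 0.05 (background 10.7% lower). let-7e was called with DESeq2 (log2 change -0.227, adjusted p 0.041).

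**Figure D4:**
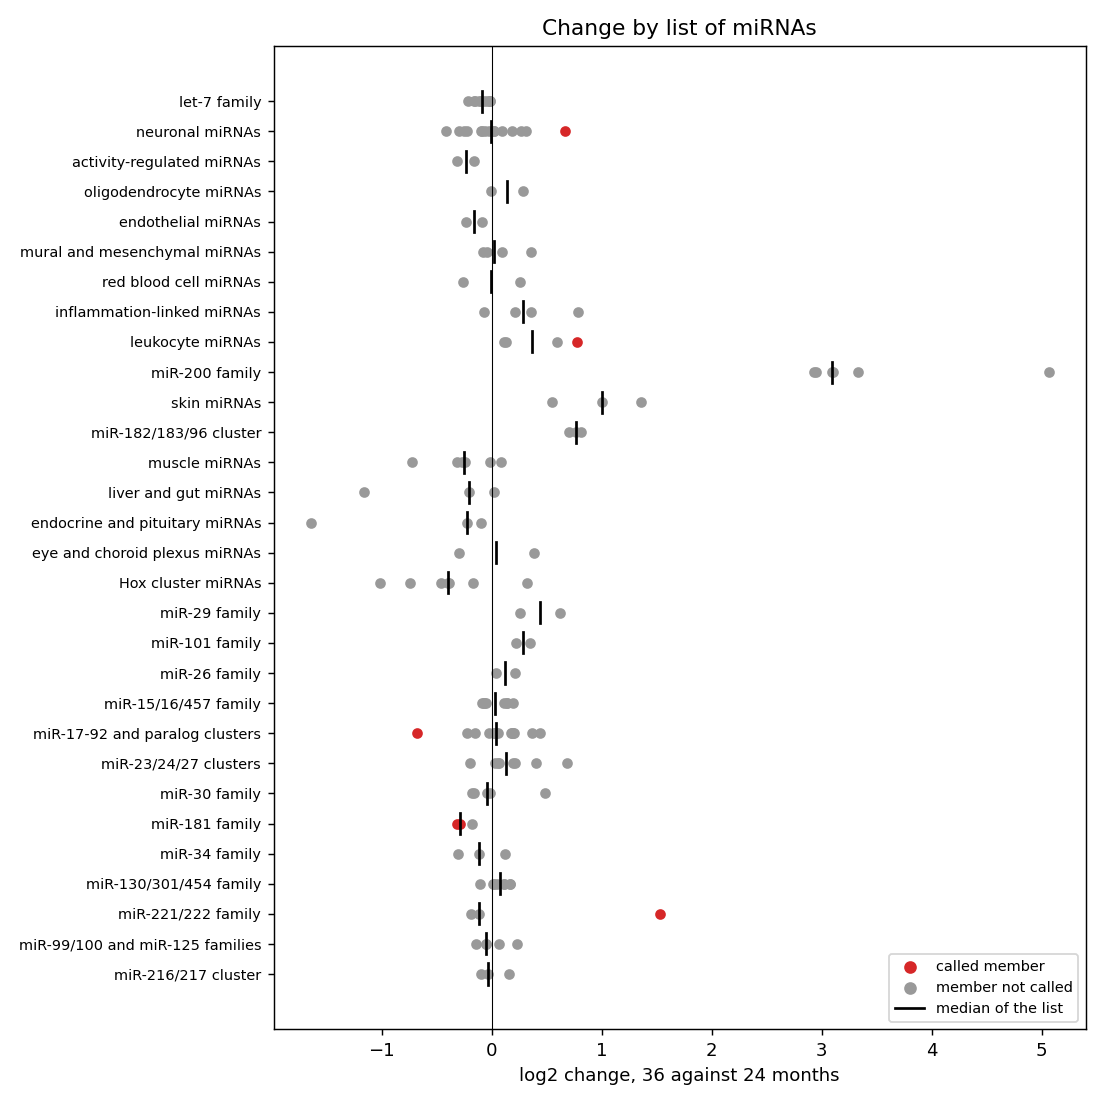
Log2 change at 36 against 24 months (x axis) of every tested member of 30 lists of miRNAs, with called members in red and the median of each list as a black bar. Called members are single ones within their lists, apart from miR-181b and miR-181c, and the miR-200 family has a median of 3.10, which is -0.135 without 36-month replicate 1.

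The miR-200 family and the miR-182 cluster were far higher in 36-month replicate 1 than in the other 9 libraries. Among the other ages, 6-month replicates 1 and 5 were near its level. They held 8628 and 7521 CPM for the summed family and 20230 and 19960 CPM for the summed cluster. The miR-200 family, typical of epithelia, had log2 changes between 2.93 and 5.06, with a lowest adjusted p of 0.120 in edgeR. All 6 members had an unadjusted p under 0.05 (background 10.7% higher) and none was called in edgeR. With the DESeq2 Wald test all 6 were called, with adjusted p from 0.0029 for miR-429b to 0.0435 for miR-200a. miR-200a was at 29.1 to 145 CPM at 24 months, and at 2789, 66.7, 35.5, 96.4 and 41.1 CPM at 36 months. Without replicate 1 the median log2 change of the family was -0.135, and none was called. In RefSeq miR-200c neighbours miR-141 and miR-429b, and miR-200b neighbours miR-200a and miR-429a.

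The cluster of miR-182, miR-183 and miR-96, known from photoreceptors and other sensory cells, was high in the same library. Its summed level was 19630 CPM in 36-month replicate 1, against 699.8 to 3016 CPM in the other 36-month libraries and 1772 to 6155 CPM at 24 months. The median log2 change was 0.771, and -0.891 without that library. The skin miRNAs, which comprise miR-205 and a pair of miR-203 genes, summed to 139.7 to 655 CPM at 24 and 292.7 to 1155 CPM at 36 months, with the highest value again in 36-month replicate 1. That holds mainly for miR-205, at 753.6 CPM there against at most 292.1 CPM in the others, while miR-203b was at 344 CPM there and 320.3 CPM in 24-month replicate 4. No member of either list was called. Among the other ages, the skin sum was higher still in 12-month replicate 4, at 5084 CPM.

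The 36-month replicate 3 stood apart at the low end for miRNAs of the Hox clusters, which are expressed from the hindbrain backwards. Its summed level was 2801 CPM, against 20360 to 43450 CPM in the other 36-month libraries and 13530 to 49790 CPM at 24 months. miR-10b alone was at 1291 CPM there, against 9595 to 20850 CPM in the other 36-month libraries. None of the 7 tested members was called, and the median log2 change was -0.399. This library also had the most reads, 20924118.

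**Figure D5:**
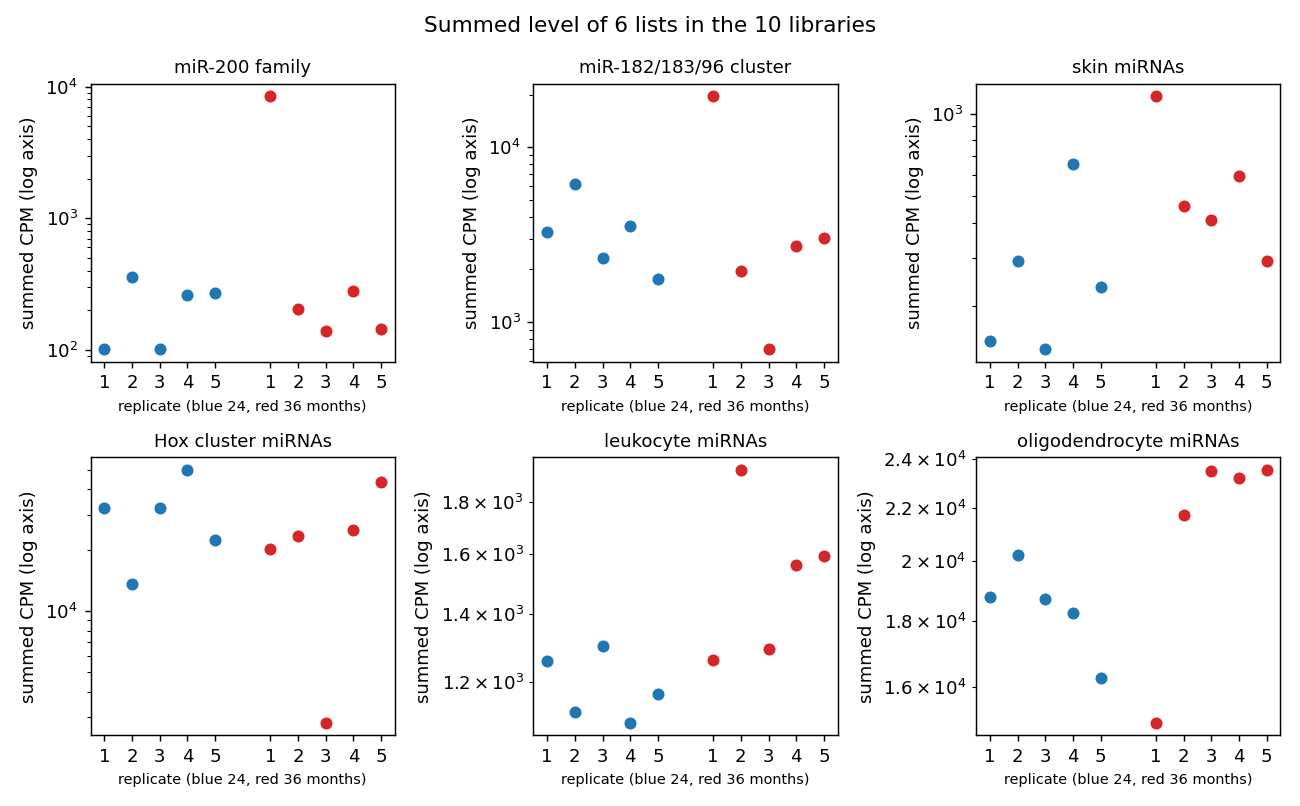
Summed CPM on a log axis of 6 lists in each of the 10 libraries, 24 months in blue and 36 months in red. The 36-month replicate 1 is highest for the miR-200 family (8463 CPM) and the miR-182 cluster (19630 CPM), and replicate 3 is lowest for the Hox cluster miRNAs (2801 CPM).

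No liver, endocrine, red blood cell or muscle miRNA was called in edgeR with all libraries. The liver miRNA miR-122 was at 2.16 to 27.2 CPM at 24 and 1.23 to 16.4 CPM at 36 months (log2 change -1.16, SE 0.84, adjusted p 0.458). miR-375, known from endocrine cells, was at 41.5, 1382, 31.1, 326 and 55.9 CPM and then at 128, 59.6, 59.5, 305 and 35.4 CPM. The 24-month mean rests on replicate 2, and without it the log2 change went from -1.65 to 0.10. Red blood cell miRNAs summed to 592.4 to 1273 CPM and 328.3 to 1470 CPM, and of the 6 muscle miRNAs none was called.

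Of the 10 most abundant miRNAs 1 was called (background 4.57%), miR-724. let-7a was at 64400 ± 13200 and 60830 ± 6200 CPM (adjusted p 0.765), miR-21 at 35310 ± 5250 and 40900 ± 13500 CPM (0.454), miR-26a at 31280 ± 2180 and 32040 ± 1880 CPM (0.807), and miR-27b at 24690 ± 1510 and 25820 ± 3410 CPM (0.694). A p above the threshold does not show that levels were equal. The 20 miRNAs not tested had at most 66 reads in any of the 10 libraries, and 9 of them had none. miR-190b had the most of them, with 114 reads in all at 24 and 8 at 36 months.

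Whether the late step differed from an earlier one was tested against 12 against 6 months, which shares no library with it and also goes from a line with no transgene named to a reporter line, Tg(flk:mCherry). Titles of the 6-month libraries carry 2 numbers each, those of the other ages 1, and the labels do not explain them. The difference of the 2 steps was called for 18 of the 197 miRNAs (9.14%), 12 of them with the higher value in the late step (6.09%) and 6 with the lower (3.05%). Among the called miRNAs of the late step these were miR-92b, whose change was -0.68 in the late and 0.03 in the early step (difference -0.71, SE 0.21, adjusted p 0.0472), and miR-135b, with 0.67 and -0.14 (difference 0.80, SE 0.25, adjusted p 0.0472). For miR-31 (0.90, adjusted p 0.173), miR-222b (0.37, adjusted p 0.653) and miR-142a (0.45, adjusted p 0.333) the difference of steps did not pass. miR-222b had risen in the early step too (log2 change 1.17, adjusted p 0.0219), a step with 28 calls (14.2%). The calls on the difference depended on single libraries, since 9 of the 20 fits that leave out 1 library gave none with edgeR, while 43 to 57 miRNAs had an unadjusted p under 0.05 in those fits.

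Between 36 and 42 months, 1 of 197 miRNAs was called (0.508%), miR-31. For 7 of the 9 miRNAs called at the late step the mean at 42 months lay between the means at 24 and 36 months. The exceptions were miR-738, at 10.6 CPM, and miR-181b, at 16180 CPM. Both comparisons share the 36-month libraries, so that values far out at 36 months enter each of them. The 9 miRNAs were also picked for the gap between the 24-month and 36-month groups, so that a mean in between carries little weight. The share over all 197 miRNAs was not counted.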

How the data were processed

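The deposited table holds raw read counts per miRNA hairpin, checked to be whole numbers not scaled by the authors. SAMtools 1.3.1-9, BWA 0.7.12-r1039, Trimmomatic 0.36 and CASAVA 1.8.4 are named per the submitters' processing notes, and libraries were made with the Illumina TruSeq small RNA kit per the labels' protocols. Genome build, annotation, counting program and handling of reads with several matches: not given in the sources used here. All 25 count columns were used, so that 0 were left unused.

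The 346 hairpin entries were summed by miRNA name, and filterByExpr (count minimum 10, total minimum 15) kept 197 and dropped 20. Counts were fitted with edgeR 4.0.16 in R 4.3.3 (TMM, robust quasi-likelihood fit on 25 libraries, age as the only term), and the SE is approximated from the F statistic. DESeq2 1.42.0 and limma 3.58.1 (voom) served as alternatives. The procedure was tested on data simulated from the model it fits, with planted changes larger than most seen here and with no outlying library. That test does not show how well small changes are found. The members, the lists and the miRNAs named were chosen with earlier results of these data known. The rule for naming took miRNAs of at least 10 CPM on average with the smallest p-values (up to 15 in each direction), the 5 largest changes in each direction, the 10 most abundant and members of the lists. miR-30d, miR-138, miR-103 and miR-10d met this rule but are not described above. All were lower at 36 months and not called in edgeR with all libraries (log2 changes -0.16, -0.30, -0.19 and -0.46, adjusted p 0.0812, 0.140, 0.154 and 0.602). miR-30d was called with DESeq2 (adjusted p 0.0205) and in edgeR without 36-month replicate 3 (0.0441). miR-730, let-7d, miR-204 and miR-218a met the rule too and are named only below, for other values. They were also lower at 36 months and not called in edgeR with all libraries (log2 changes -0.34, -0.16, -0.30 and -0.25, adjusted p 0.120, 0.138, 0.199 and 0.209). miR-730 was called with DESeq2 (adjusted p 0.0350) and in edgeR without 36-month replicate 5 (0.0384). miR-125c, miR-30a and miR-190b also appear for separation of the ages or for their reads, and some family members for comparison, chosen after their values were seen. Neighbouring hairpins (335 of 346 matched, within 10 kb) come from RefSeq on GRCz12tu, by name. No replicate pairs were found that agree within sampling noise. Replicates are numbered in order of deposit and pair nothing across ages. No batch is given in the labels.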

Additional observations from a re-analysis of the deposited data

Results flagged for a closer look

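Of 94 sets of 5 libraries examined, 11 held a library far from the other 4. Most sets were of miRNAs picked by their change or level in these data, and members of a family vary together. No chance rate can therefore be set beside this count. The 36-month replicate 1 accounts for 7 of the 11. It was highest for miR-429b (260.3 CPM, others at most 1.53), miR-200c (774.7 CPM, others at most 30.4), miR-141 (2232 CPM), miR-429a (2040 CPM), miR-200b (367 CPM) and the summed miR-200 family (8463 CPM), and lowest for miR-338 (11190 CPM, others from 16950). With the epithelial sums as covariates, miR-338 was called (log2 change 0.36, adjusted p 0.0113).

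The 36-month replicate 2 was far above the others for miR-142a (810 CPM, others 435.9 to 484.3). The 36-month replicate 3 had far more reads (20924118) than the others. At 24 months, replicate 2 stood apart for miR-375 (1382 CPM, others at most 325.7) and replicate 4 for miR-218a (742.8 CPM, others at most 573.1).

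The late step (36 against 24 months) differed from the early step (12 against 6 months) for 10 named miRNAs by the contrast of both steps in the edgeR fit, with adjusted p of 0.0324 for miR-19c and 0.0472 for the others. The difference in log2 change was -0.71 for miR-92b, 0.80 for miR-135b, -0.58 for miR-730, 0.84 for miR-19c, -0.32 for let-7d, -0.66 for miR-204 and -0.38 for miR-27b. In the late and the early step, miR-730 changed by -0.34 and 0.24, miR-19c by 0.37 and -0.47 and let-7d by -0.16 and 0.15. miR-204 changed by -0.30 and 0.36, and miR-27b by 0.06 and 0.45. None of these was called in the late step, and miR-19c and miR-27b were called in the early step (adjusted p 0.0191 and 0.00053). The difference was 7.96 for miR-429b, 5.13 for miR-200c and 5.11 for miR-141. Without 36-month replicate 1 it was 2.58, 2.29 and 2.01 in turn, and none was called (adjusted p 0.371, 0.216 and 0.288). These miRNAs were also high in 6-month replicates 1 and 5, at 243.8 and 228 CPM for miR-429b, 729.2 and 646.7 CPM for miR-200c and 1999 and 1781 CPM for miR-141. Without either of those libraries none of the 3 was called (adjusted p from 0.0677 to 0.0826). miR-30a, under 10 CPM, had a difference of 1.40 with an adjusted p of 0.0472. Across 27 other settings, miR-19c was called in 18 and each of the rest of the 10 named miRNAs in 8 or 9. These settings were not examined for miR-30a.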

How the results depend on the processing

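The count of 9 called miRNAs became 16 (12 higher, 4 lower) with library totals only, in place of 5 higher and 4 lower, 22 with the DESeq2 Wald test, 5 with limma-voom, 2 in a fit of the 10 libraries, 5 with a minimum of 10 CPM and 5 with epithelial sums as covariates. All 9 were among the 16 and the 22. Leaving out 1 library gave 1 to 12 calls: 1 without 36-month replicate 2, 4 without 36-month replicate 4, and 3, 4 and 5 without 24-month replicates 5, 3 and 2 in turn. miR-31 was called in all 18 settings that could test it.

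The difference of steps had 18 calls, and 30 with DESeq2 size factors, 32 with the DESeq2 Wald test, 2 with limma-voom, 28 with no filter and 0 to 37 with 1 library left out. It had 0 in edgeR without 6-month replicate 5, 12-month replicate 2 or 5, 24-month replicate 1, 3 or 5, and 36-month replicate 1, 2 or 4, with 43 to 57 miRNAs at an unadjusted p under 0.05. It had 2 to 5 without the other 6-month libraries, 12-month replicate 1 or 3 and 24-month replicate 2 or 4, and 37 without 36-month replicate 3. With library totals only it had 20 higher and 1 lower in place of 12 and 6, and the median difference was 0.135 in place of 0.0156.

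Some log2 changes turned sign. With 1 library left out, miR-429b ranged from -0.33 to 5.40, miR-141 from -0.15 to 3.27, miR-429a from -0.13 to 3.75 and miR-200b from -0.058 to 3.50, each lowest without 36-month replicate 1. Likewise miR-375 ranged from -2.38 to 0.10 (without 24-month replicate 2), miR-21 from -0.0047 (without 36-month replicate 2) to 0.30, let-7a from -0.17 to 0.040 (without 24-month replicate 4) and miR-128 from -0.095 to 0.050. With covariates miR-200b was -0.025 and miR-128 0.085. miR-128 was 0.057 with library totals only and 0.016 with a minimum of 10 CPM. The difference in total count ranged from -468400, without 36-month replicate 3, to 3453000. The cause of these shifts was not tested. No paired analysis was possible because the replicate numbers come from the order of deposit. Low counts limit miR-31 most among the 9, with 187 reads in all at 24 months.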
